A study of Mus musculus with 4 samples.

Results

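The family of miR-130 and miR-301 was followed in A3-1 mouse embryonic stem cells after depletion of LIN28A, an RNA-binding protein known for blocking the maturation of let-7 precursors. Its members were taken by name from the scanner files of an Agilent mouse miRNA array: miR-130a, miR-130b, miR-301a and miR-301b, 4 of the 577 miRNA names on the array. Cells were treated with siRNA directed at Lin28a (siLin28a), and the controls with siRNA directed at GFP (siGFP), a jellyfish protein. Both were grown in DMEM containing 20% foetal serum and LIF, which holds mouse stem cells in the undifferentiated state. RNA was extracted with Trizol 48 h later, and each array received 100 ng of Cy3-labelled total RNA. The siLin28a group and the siGFP group had 2 replicates each, so 4 arrays on 1 slide carry every comparison. Both groups are of the 1 cell line, and a miRNA array does not measure Lin28a mRNA, so the depth of the knockdown is not known here. Separate cultures are not stated for the replicates, and the spread behind each p-value may therefore be technical.

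Members of this family share a seed, the stretch at the 5′ end of a miRNA that pairs with target mRNAs, and are therefore expected to recognise overlapping sets of targets. In human cells the family is known for repressing PPARG, a nuclear receptor of fat cell formation. miR-130a is also known from human endothelial cells, where it represses the homeobox genes MEOX2 and HOXA5.

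The mature sequences are shown because the members are told apart only by their 3′ parts. They are from RefSeq (GRCm38.p6), and capitals mark the seed, bases 2 to 8. The table held 3 of the 4 members, with miR-301b the exception, and it held miR-721, a further miRNA on the array with the same seed.
mmu-miR-130b: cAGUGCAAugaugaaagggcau
mmu-miR-130a: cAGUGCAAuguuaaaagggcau
mmu-miR-301a: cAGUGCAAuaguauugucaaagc
mmu-miR-721: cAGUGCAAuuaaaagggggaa
miR-130a and miR-130b share their first 10 bases and differ at 2 of 22 positions, U11A and A13G, with miR-130a's base first and positions counted from 1 at the 5′ end. Every other pairing of these sequences shares the first 9 bases. A part of cross-hybridisation between members in the measured signals was not tested. Of 1679 mature mouse miRNAs in the table, 7 carried this seed.

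The hairpins of the clustered pair, miR-130b and miR-301b, are shown because these precursors lie next to each other. Capitals mark the match to the family seed, found 1 time in each.
Mir130b: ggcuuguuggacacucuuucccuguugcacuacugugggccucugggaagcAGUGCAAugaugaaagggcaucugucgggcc
Mir301b: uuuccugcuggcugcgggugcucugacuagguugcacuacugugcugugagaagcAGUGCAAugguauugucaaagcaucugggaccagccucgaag
In the files' build, mm9, the probe targets of miR-130b lie on chromosome 16 from 17124164 to 17124181 and those of miR-301b from 17124513 to 17124532, with 349 bases between their first positions. The probe targets of miR-130a lie on chromosome 2 (84581273 to 84581291) and those of miR-301a on chromosome 11 (86926558 to 86926578). In the RefSeq annotation of GRCm38.p6 the Mir130b and Mir301b hairpins both lie within the span of 2610318N02Rik, a protein-coding gene, and the Mir301 hairpin, which gives miR-301a, within that of Ska2, a gene of the spindle and kinetochore. The Mir130a hairpin lies in no other annotated gene, between Ypel4 and Serping1. The letters GGAG, a motif bound by the zinc knuckles of LIN28 proteins in let-7 loops, were searched on the RNA strand and occurred in 0 of the 4 family hairpins, against 44.5% of 1005 mouse hairpins in the table (median length 79 bases).

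Across the arrays, between 34.5% and 38.8% of spots were well above background in the siLin28a group, against 32.5% to 32.9% in the siGFP group. To put the arrays on one scale, the signals of each were divided by a 75th percentile, taken over the 425 probes that exceeded background everywhere. It was 248 and 265 intensity units for siLin28a and 226 and 220 for siGFP. All 9 listed markers of embryonic stem cells, miRNAs of the miR-290 to miR-295 cluster, were detected on all 4 arrays. Of the fibroblast or feeder markers, 3 of 6 on the array were detected on all arrays, and miR-145 and miR-199a-5p were detected on none. miR-21, also on that list, had a mean log2 scaled signal of -0.17 in both groups. Markers of endothelium and blood were detected on all arrays for 2 of 6 (miR-223 and miR-451 on none), and neural markers for 2 of 3 (miR-9 on none). In bulk RNA, fewer cells of a type and less RNA per cell cannot be told apart.

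Setting siLin28a against siGFP asks how mature miRNA levels respond to loss of LIN28A. All 4 members were well above background on all 4 arrays, through 8 of their 10 probes, so none entered the test through 1 group alone. No member passed limma's test at an adjusted p of 0.05, where 0.866% of the 231 tested miRNAs did, all of them higher in siLin28a (0% lower). The clustered members miR-130b and miR-301b differed by -0.30 and -0.31 on the log2 scale, and their siLin28a arrays lay below both siGFP arrays. The members encoded elsewhere, miR-130a and miR-301a, differed by 0.04 and -0.06, and their groups overlapped. Groups lay apart with siLin28a lower for 2 of 4 members, against 30.7% of all tested miRNAs, and apart with siLin28a higher for 0 of 4, also against 30.7%. In either direction 61.5% of all tested miRNAs had groups that lay apart, so such a gap is common on these arrays. The members' median difference was -0.18, against 0 over all tested miRNAs.

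miR-130b, which in human liver and blood cancers is known for repressing the stress-induced gene TP53INP1, had scaled signals of 0.864 and 0.849 on the siLin28a arrays, against 0.991 and 1.12 on the siGFP arrays. Both siLin28a values lay below both siGFP values. The log2 difference was -0.30 (SE 0.09, 95% interval -0.57 to -0.03, n = 2 per group), which is 0.813-fold. Its limma adjusted p was 0.169 and its unadjusted limma p was 0.0367, a level that 24.7% of all tested miRNAs reached (13.4% higher and 11.3% lower in siLin28a). The other 3 members did not reach it in this fit, but which members did so changed with the processing. With the replicate number as a block in the model, the unadjusted limma p was 0.0601 for miR-130b and 0.0381 for miR-301b. With no scaling between arrays it was 0.343 for miR-130b, and with normexp background correction 0.00602 for miR-130a, there higher in siLin28a. By size of difference miR-130b ranked 91 of 231.

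miR-301b, its neighbour on chromosome 16, had scaled signals of 0.228 and 0.192 on the siLin28a arrays, against 0.269 and 0.252 on the siGFP arrays. Here too the groups did not overlap, with means of 0.210 ± 0.0256 with siLin28a and 0.260 ± 0.0120 with siGFP (SD, n = 2 each). The log2 difference was -0.31 (SE 0.15, 95% interval -0.73 to 0.11, n = 2 per group), which is 0.805-fold, with a limma adjusted p of 0.266. Without siLin28a replicate 2 the difference was -0.19. By size of difference it ranked 86 of 231. Of its 4 probes, 2 were well above background on every array and 2 on none, so the value rests on the pair with the longest targets.

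miR-130a had scaled signals of 6.20 and 6.24 on the siLin28a arrays, against 5.64 and 6.52 on the siGFP arrays. The siLin28a values lay between the siGFP values. The log2 difference was 0.04 (SE 0.09, 95% interval -0.23 to 0.30, limma adjusted p = 0.803, n = 2 per group). Without siGFP replicate 1 it was -0.068, so the side of 0 on which it lies depends on that array.

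miR-301a, which in human pancreatic cancer cells is known for repressing NKRF, an inhibitor of NF-kappaB, had scaled signals of 1.22 and 0.996 on the siLin28a arrays, against 1.14 and 1.15 on the siGFP arrays. The siGFP values lay between the siLin28a values. The log2 difference was -0.06 (SE 0.12, 95% interval -0.42 to 0.30, limma adjusted p = 0.772, n = 2 per group), and it was 0.087 without siLin28a replicate 2. The interval of miR-301a includes the differences measured for miR-130b and miR-301b, whereas the lower bound for miR-130a, -0.23, lies above both. The interval of miR-130b overlaps that of miR-130a, and the interval of miR-301b includes the difference of miR-130a. These intervals therefore do not separate the members. They are of single members and leave out that all were read on the same arrays, so they do not test a difference between members. The members are compared within each array further below.

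**Figure D1:**
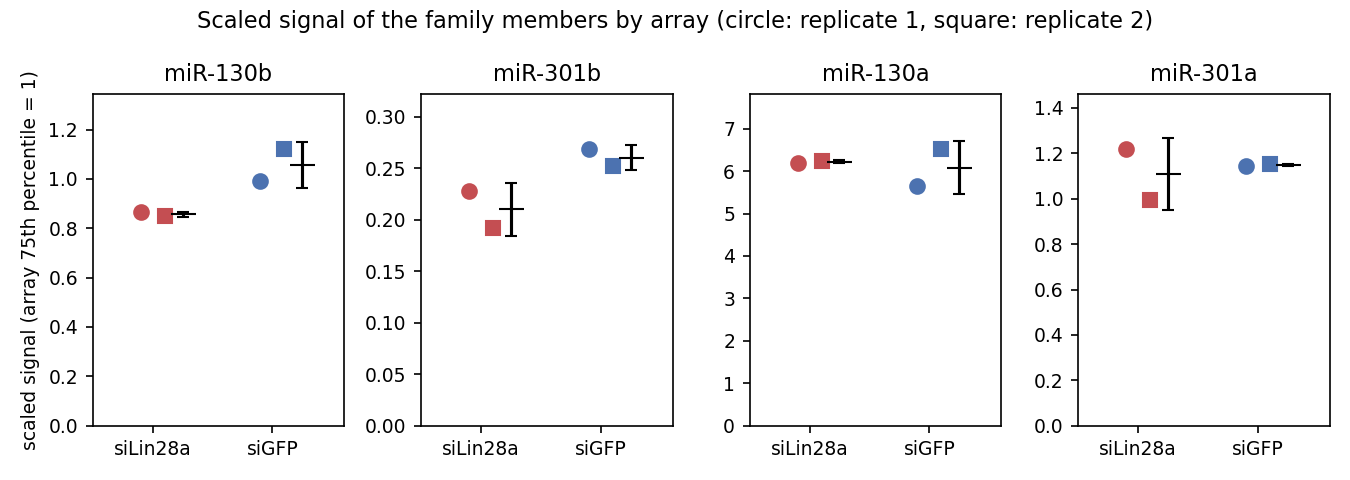
Scaled signal (vertical axes, in units of the array's 75th percentile, each starting at 0) of the 4 family members on the siLin28a and siGFP arrays. Circles are replicate 1, squares replicate 2, and black bars the mean ± SD of 2 arrays. The groups lie apart for miR-130b and miR-301b and overlap for miR-130a and miR-301a. Heights are not comparable between panels, since probes differ.

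Each member was read by separate probes, which differ in how many bases of the miRNA they cover. For miR-130b the differences of its 2 probes were -0.31 and -0.29 on the log2 scale, and for miR-301b both were -0.31. On each of these 4 probes both siLin28a arrays lay below both siGFP arrays. For miR-130a the probe differences were 0.02 and 0.05 and for miR-301a -0.07 and -0.04, and on all 4 of those probes the groups overlapped. Probes of a miRNA share the hybridised RNA and are not replicates of the treatment. Between the spots of a probe on an array, the coefficient of variation of the kept probes had a median of 6.34%, with a range from 2.01% to 12.9%.

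Differences were also taken between arrays of the same replicate number, a pairing that nothing states to mark a shared batch. For the clustered pair the negative sign was fixed in advance, since the groups lay apart. siLin28a replicate 1 minus siGFP replicate 1 was -0.20 for miR-130b and -0.24 for miR-301b, and the difference of the second replicates was -0.40 and -0.39. For miR-130a the differences were 0.14 and -0.06, and for miR-301a 0.09 and -0.21. Their signs thus depended on the replicate. Over the tested miRNAs, deviations of same-numbered arrays from their group means correlated at 0.71, and the replicate number goes with position on the slide. The SEs, intervals and p-values of the members above are of the model without a replicate block, except where a block is named. With the block the SE was 0.108 for miR-130b and 0.0952 for miR-301b.

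**Figure D2:**
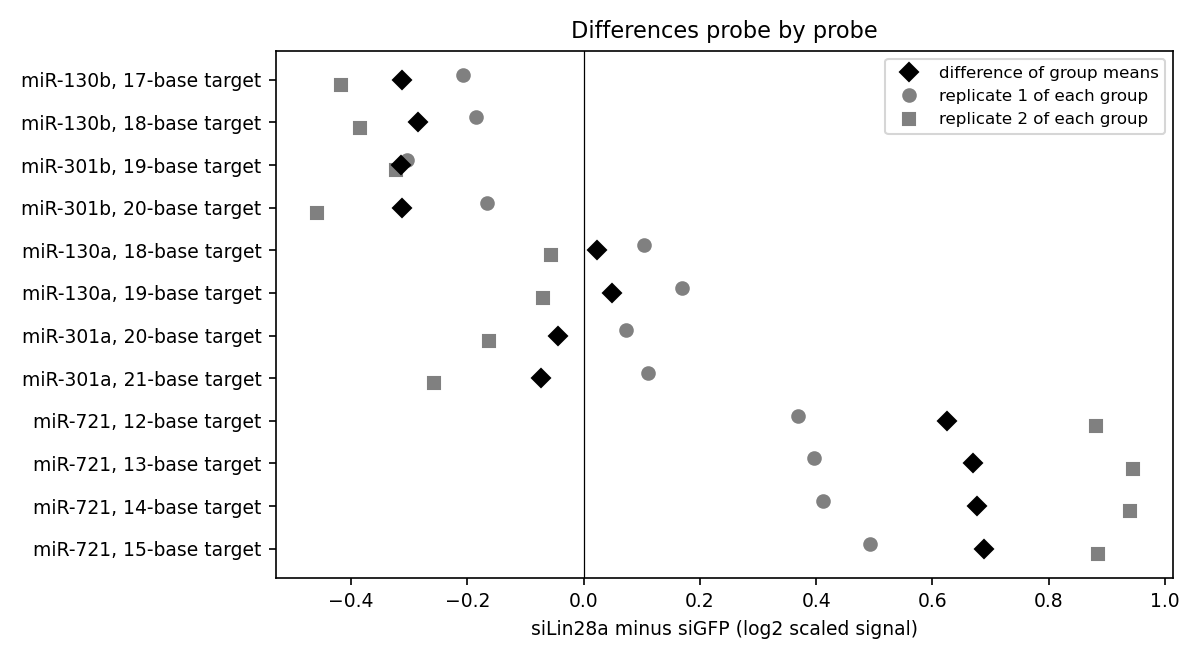
Difference siLin28a minus siGFP (log2 scaled signal, horizontal axis) for each probe kept in the test, with the length of its target in the label. Diamonds are differences of group means, circles the first and squares the second replicate of each group. All 4 probes of miR-130b and miR-301b lie left of 0 in both replicates, those of miR-130a and miR-301a lie on both sides, and the 4 probes of miR-721 lie to the right.

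The clustered pair was then set against the other members within each array. This removes a constant factor between arrays, but not an array difference that depends on signal intensity. The mean log2 signal of miR-130b and miR-301b minus that of miR-130a and miR-301a was taken per array and expressed relative to its mean over the siGFP arrays, since its absolute level depends on the probes. It was -0.30 and -0.29 on the siLin28a arrays, against 0.03 and -0.03 on the siGFP arrays. The groups differed by -0.29, with an SD of 0.0027 between the siLin28a arrays and of 0.048 between the siGFP arrays. The difference was thus several times larger than the spread between replicates, an estimate that rests on 2 arrays per group. The SD of 0.0027 is that of a mean over pairs that moved in opposite directions between the siLin28a arrays. For miR-130b minus miR-130a the SD was 0.025 with siLin28a and 0.022 with siGFP. For miR-301b minus miR-301a it was 0.031 and 0.074. For scale, the median size of the difference of a single tested miRNA was 0.23. The same comparison was not made for other sets of miRNAs, so how often such a value arises on these arrays is not known. With 2 arrays per group no exact two-sided permutation test can give a p below 0.333, so no test of the within-array comparison was made.

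The comparison was then made for each related pair alone, with the same direction in both. miR-130b relative to miR-130a was at -0.32 and -0.35 on the siLin28a arrays, against 0.02 and -0.02 on the siGFP arrays. miR-301b relative to miR-301a was at -0.28 and -0.23 on the siLin28a arrays, against 0.05 and -0.05 on the siGFP arrays. Within the clustered pair, miR-130b minus miR-301b differed between siLin28a and siGFP by 0.01, less than the SD of 0.16 between the siLin28a arrays and of 0.19 between the siGFP arrays. miR-130a minus miR-301a differed by 0.10, also less than its SD of 0.21 between the siLin28a arrays and of 0.14 between the siGFP arrays.

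**Figure D3:**
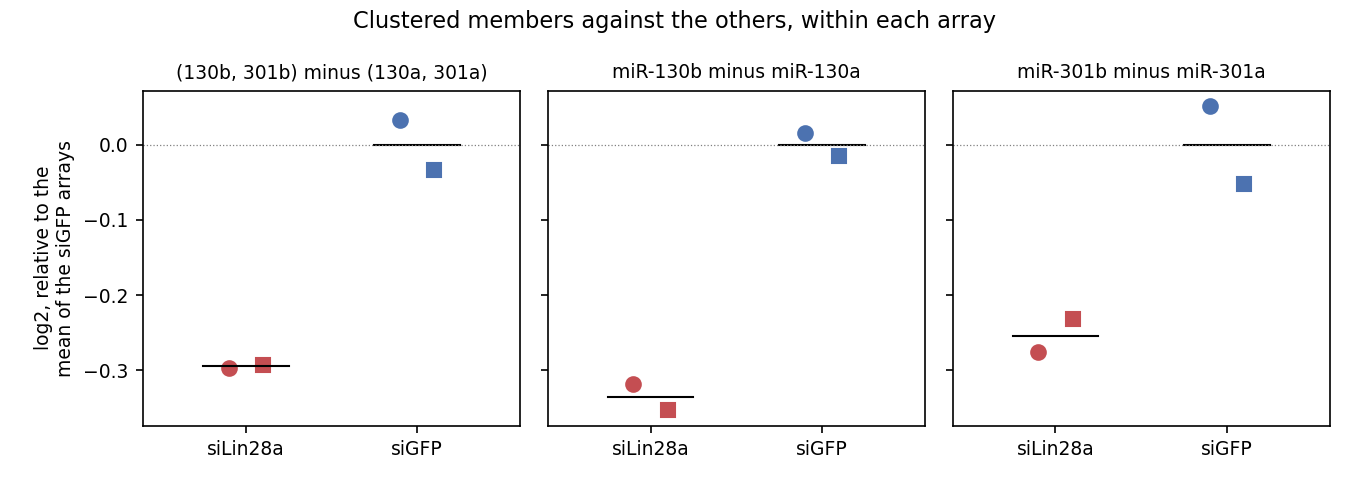
Log2 signal of the clustered members minus that of the others within each array, relative to the mean of the siGFP arrays (vertical axis). Points are single arrays, with circles for replicate 1 and squares for replicate 2, and black lines are means of 2 arrays. The siLin28a arrays lie at -0.30 and -0.29 for the mean of both pairs, below both siGFP arrays in every panel.

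The total gene signal, which Feature Extraction sums over the probes of a miRNA and which is not scaled between arrays, was read as a further measure. miR-130b had totals of 306 and 327 on the siLin28a arrays, against 310 and 360 on the siGFP arrays, with overlapping groups. miR-301b had 41.0 and 39.9 with siLin28a, against 44.1 and 44.2 with siGFP, without overlap. miR-130a had 2192 and 2397 with siLin28a, against 1764 and 2090 with siGFP, and miR-301a had 464 and 407 with siLin28a, against 383 and 398 with siGFP. On this unscaled measure the siLin28a arrays were thus the brighter ones for miR-130a and miR-301a, and for miR-301b the dimmer ones. The siLin28a arrays were also brighter in general, with 75th percentiles of 248 and 265 against 226 and 220 for siGFP. Without scaling of the probe signals, the median log2 difference of all tested miRNAs was 0.19. How many of all miRNAs had groups that lay apart in total gene signal was not counted. The log2 ratio of miR-130b to miR-130a differed by -0.34 between siLin28a and siGFP on this measure, and that of miR-301b to miR-301a by -0.28.

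The opposite strand of the miR-130b hairpin, miR-130b*, was on the array, and those of the other members were not among its names. Its total signals were 9.55 and 9.33 on the siLin28a arrays, against 9.61 and 12.8 on the siGFP arrays. Feature Extraction called it detected on 1 of the 2 siLin28a arrays and on both siGFP arrays, but none of its 4 probes was well above background on any array, so it was not tested.

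Relatives by seed were listed for comparison with the family. miR-721 has the same seed and comes from the span of Cux1 on chromosome 5. Its scaled signals were 1.43 and 1.73 on the siLin28a arrays, against 1.07 and 0.918 on the siGFP arrays. The groups did not overlap, and siLin28a was the higher one. The log2 difference was 0.67 (SE 0.14, 95% interval 0.25 to 1.08, limma adjusted p = 0.159, n = 2 per group), which is 1.59-fold and ranked 20 of 231 by size. All 4 of its probes lay between 0.62 and 0.69. Their targets cover only 12 to 15 bases, against 17 to 21 for the kept probes of the family members. The same seed therefore stood on miRNAs with differences between -0.31 and 0.67.

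The other relatives carry the seed letters shifted by 1 base. miR-19a and miR-19b, with seed GUGCAAA, are members of the proliferation-linked miR-17-92 cluster. miR-148a, miR-148b and miR-152, with seed CAGUGCA, form a family known for repressing the DNA methyltransferase DNMT1 in human cells. Of the 6 listed relatives 5 were tested, none passed at an adjusted p of 0.05, and their median difference was -0.12.
mmu-miR-19b: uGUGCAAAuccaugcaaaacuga
mmu-miR-148a: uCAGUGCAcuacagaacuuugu
miR-19a had scaled signals of 1.71 and 1.35 with siLin28a, against 1.87 and 1.91 with siGFP, and a log2 difference of -0.31 (SE 0.14). That difference was -0.14 without siLin28a replicate 2 and -0.48 without siLin28a replicate 1. miR-19b had 6.80 and 5.89 with siLin28a, against 8.13 and 8.11 with siGFP, and a log2 difference of -0.36 (SE 0.09). For both, the siLin28a arrays lay below both siGFP arrays. miR-148a and miR-148b had differences of -0.12 (SE 0.12) and 0.10 (SE 0.11), with overlapping groups. For miR-148a, 1 of its 2 probes lay at the floor set for dim signals on replicate 2 of both groups. Both signs depended on the scaling, at 0.023 for miR-148a with no scaling between arrays and at -0.072 for miR-148b with the scaling over all probes. miR-152 was detected on no array.

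**Figure D4:**
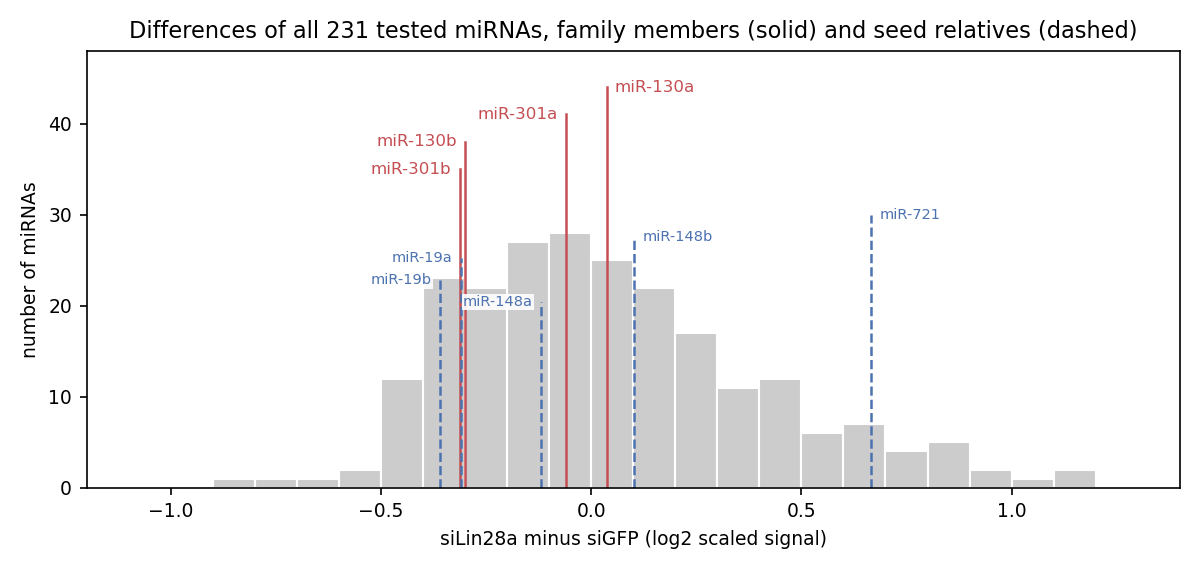
Histogram of the difference siLin28a minus siGFP (log2 scaled signal, horizontal axis) over the 231 tested miRNAs (number per bin of 0.1, vertical axis). Solid lines mark the 4 family members and dashed lines the tested seed relatives, with heights chosen for the labels only. miR-130b and miR-301b lie near -0.3, miR-130a and miR-301a near 0 and miR-721 at 0.67.

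Likeness of pattern was measured as the Euclidean distance over the 4 arrays between log2 values centred on each miRNA's own mean, and the 3 nearest of 230 other tested miRNAs were taken for each member. For miR-130b these were miR-665, miR-106a and miR-136*, at distances of 0.0381, 0.0419 and 0.0432, where the median over all miRNAs was 0.394. For miR-301b they were miR-19b, miR-18a and miR-19a, at distances of 0.0849, 0.0987 and 0.110, where the median was 0.456. The nearest to miR-130a were miR-652, miR-128 and miR-425, at 0.0571 to 0.108. The nearest to miR-301a were miR-101b, miR-291a-3p and miR-103, at 0.0621 to 0.103. No member was among the 3 nearest of another, and with 4 arrays such a likeness is a description only.

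Under the other ways of processing the arrays, the differences of miR-130b lay between -0.47 and -0.10 and those of miR-301b between -0.49 and -0.11. With the scaling over all probes the median of all tested miRNAs was itself at -0.16, and with no scaling it was at 0.19. Relative to that median, miR-130b was at -0.32 and -0.29 in these settings and miR-301b at -0.33 and -0.30. miR-130a was at 0.02 and 0.05 relative to it, and miR-301a at -0.08 and -0.05. The within-array comparison of the clustered pair with the others lay between -0.33 and -0.22 over all 15 alternatives. Some of these cannot move it. It stayed at -0.29 with the scaling over all probes, no scaling, eBayes without a trend and the replicate number as a block.

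**Figure D5:**
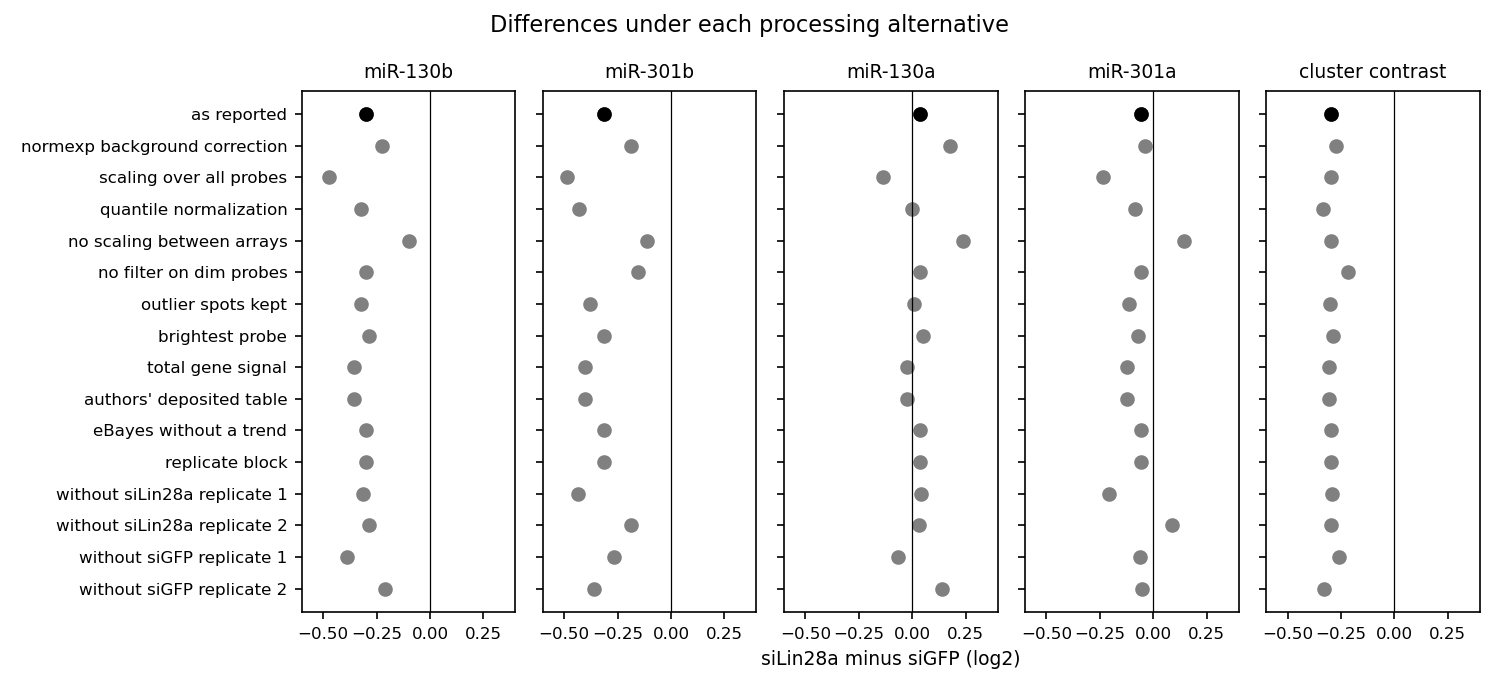
Difference siLin28a minus siGFP (log2, horizontal axes) of each member and of the within-array comparison of miR-130b and miR-301b with miR-130a and miR-301a (right panel), as reported (black) and under each of 15 alternatives (grey). miR-130b, miR-301b and the comparison lie left of 0 throughout, whereas miR-130a and miR-301a lie on both sides.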

How the data were processed

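Cy3-labelled RNA of 4 samples was measured on single-colour arrays, grouped by the sample titles. Each deposited scanner file gives linear intensity values from Feature Extraction, whose version is 9.5.3.1 per the submitters' processing notes. The file headers give 9.5.1.1 as the version of its grid placement. Background had been subtracted in the processed intensity used here, per the file headers. The authors' deposited series table holds the total gene signal, with 100% of values above 10 within 5% of the scanner files' and no scaling between arrays (column medians 6.3 and 9.1 for siLin28a, 4.7 and 4.7 for siGFP).

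Of 11540 spots, 3.21% to 4.32% per array were dropped by outlier flags, and 0 were saturated. Signals were averaged over spots, divided by each array's 75th percentile over 425 probes well above background on all arrays (at least 50% of spots flagged so), floored at 0.0948 and taken to log2. Of 1712 probes, 477 that exceeded background on each array of at least 1 group were kept and averaged per miRNA, giving 231. The siLin28a minus siGFP differences were tested two-sided in limma 3.58.1 (R 4.3.3, lmFit, then eBayes with trend), adjusted after Benjamini and Hochberg across the 231, on 2 residual and 1.64 prior degrees of freedom. The limma step alone was tried on simulated arrays with independent noise, and had to recover the sign and mean size of the differences. Deviations shared by same-numbered arrays and floored signals were not simulated, so the p-values were not checked for these. The members and lists were chosen with earlier results of these data known. Named miRNAs are the members, their opposite strands, the listed seed relatives, some listed cell type markers and the 3 nearest patterns per member. The number of arrays limits the precision. All arrays were on 1 slide with 1 scan time, so no slide or scan block could be fitted.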

Additional observations from a re-analysis of the deposited data

How the results depend on the processing

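Of 15 alternatives, none gave a family member an adjusted p below 0.05 in limma (range over members 0.101 to 1). miR-130b and miR-301b kept their sign in all 15. For some alternatives this was fixed in advance. The eBayes and block settings leave a difference unchanged, and leaving out 1 array cannot turn the sign where groups lie apart. The sign of miR-130a turned in 4 of the 15 alternatives, to -0.14 with the scaling over all probes, -0.023 with the total gene signal, -0.023 with the authors' deposited table and -0.068 without siGFP replicate 1. The total gene signal and the deposited table hold nearly the same values, so they are not separate checks in any of these counts. The sign of miR-301a turned in 2, to 0.14 with no scaling between arrays and 0.087 without siLin28a replicate 2. With 1 array left out, differences ranged from -0.39 to -0.21 for miR-130b, -0.44 to -0.19 for miR-301b, -0.068 to 0.14 for miR-130a and -0.21 to 0.087 for miR-301a. The within-array comparison of the clustered pair with the others was -0.33 with quantile normalization and -0.22 with no filter on dim probes, which brings in 2 probes of miR-301b held at the floor on all arrays, and it ranged from -0.33 to -0.26 with 1 array left out. Among the relatives, miR-148a turned to 0.023 with no scaling and to 0.032 without siGFP replicate 1 (with 1 array left out, -0.27 to 0.032), and miR-148b to -0.079 with normexp, -0.072 with the scaling over all probes and -0.034 with quantile normalization. miR-721 passed the threshold with no filter (limma adjusted p = 0.000425), over a range of 0.000425 to 0.513. The count of miRNAs called higher was 2, and it was 0 with normexp, 0 with the scaling over all probes, 40 with no filter, 8 with the total gene signal and 8 with the deposited table, and 0 to 10 with 1 array left out (10 without siLin28a replicate 1, 7 without siLin28a replicate 2, 0 without either siGFP array). The count called lower was 0 (26 at an unadjusted p below 0.05), and it was 8 with no filter and 0 to 1 with 1 array left out (1 without siLin28a replicate 1). With no filter most dim miRNAs lie at the floor with a spread of 0, and where a group has 1 array left it is assumed to vary like the other. The causes of the remaining changes were not tested. With the replicate number as a block, which nothing states to mark a shared batch and which goes with position on the slide, 2 miRNAs were called higher, and the adjusted p was 0.158 for miR-130b and 0.119 for miR-301b. Deviations of same-numbered arrays from their group means correlated at 0.71.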
